A study of Mus musculus and Homo sapiens with 12 samples.

Results

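AluS elements are the largest of the Alu repeat groups in the human genome, short retrotransposons that lie mostly in introns and between genes. The set comprised the 706123 elements of family Alu whose subfamily name begins with AluS, of 3919868 repeat elements listed for hg38, and they fell into 17 subfamilies. For comparison, the younger AluY group held 143718 elements and the older AluJ group 283514. The assay was m5C meRIP–seq on chromatin-associated RNA (caRNA): transcripts that co-purify with chromatin were precipitated with an antibody against methylated cytosine (m5C) and sequenced. The cells were K-562, a human chronic myeloid leukaemia line, either wild type (WT) or with TET2 knocked out (TET2-KO), with 3 libraries per group. The study writes the knockout line as TET2−/−. TET2 is an oxidase of methylated cytosine in DNA and RNA. The KO cells were a gift, no label names a further treatment or allele, and nothing in the labels says whether the line was 1 clone or whether the 3 libraries came from separate cultures. The study calls the replicates of its genome-wide data biological without describing the cultures, so p-values measure only the spread between these libraries. One label field of the KO libraries spells the line K563 while their titles name K562, and they were kept as K-562.

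Alu elements arose from the signal recognition particle RNA gene, and they carry an internal RNA polymerase III promoter whose B box is a short conserved motif. Most Alu RNA in a cell is nevertheless read from within the transcripts of host genes, and the remainder from the elements' own promoters. They are rich in CpG dinucleotides when young and lose them with age by deamination of methylated cytosine, so AluY elements hold more and AluJ elements fewer. In hg38 this order held for elements of 250 to 320 bases, with a mean of 13.8 CpG per AluY, 7.08 per AluS and 3.21 per AluJ. The exact B box letters GTTCGAGAC, searched on the element's own strand, were in 22.5% of AluS elements of that length, in 0.671% of AluY and in 7.36% of AluJ elements. Only these letters were searched, so an element without them may still carry another form of the B box.

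The values are estimated counts per element, fractional through counting options that the sources used here do not give, and only precipitated RNA was used. A difference between TET2-KO and WT therefore joins RNA abundance with m5C enrichment, is relative to the other repeats, and cannot tell fewer cells with a transcript from less of it per cell. A library held 498145 to 827341 counts over the classes DNA, LINE, LTR and SINE, of which 50993 to 85378 lay on AluS. None of the 28 AluS elements inside TET2 (chr4:105145875-105279816) had a count in any library, WT included, so the knockout could not be checked from them.

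The part of the signal taken by AluS did not separate the groups. Its share of the counts was 10.4%, 10.2% and 9.30% in WT and 10.4%, 9.12% and 8.71% in TET2-KO, and the ranges overlapped. The mean was 9.97% ± 0.590 (SD, n = 3) in WT and 9.40% ± 0.875 (SD, n = 3) in TET2-KO, a log2 ratio of -0.09 (exact permutation test, two-sided, p = 0.4). With 3 libraries against 3 this test cannot give a p below 0.1. The direction depended on a few elements with very high counts. FordPrefect, a DNA transposon with 3 copies near ribosomal RNA genes, took 7.21% to 9.84% of a WT library and 23.0% to 23.6% of a TET2-KO library. Without the 10 highest elements of the table, of which 4 lie on other chromosomes than the ribosomal RNA genes, the log2 ratio for AluS was 0.16, and the groups no longer overlapped (exact permutation test, p = 0.1). Without all elements near annotated 5.8S genes it was 0.027 (exact permutation test, p = 0.8), and without those near any 5.8S copy it was 0.069 (exact permutation test, p = 0.6).

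Within the Alu family the balance between the age groups was apart between WT and TET2-KO libraries, without passing adjustment. AluS itself held 51.9% to 55.5% of the Alu counts in WT and 52.2% to 59.1% in TET2-KO, which overlapped (exact permutation test, p = 0.3). The number of AluY counts per AluS count was 0.521, 0.472 and 0.440 in WT and 0.284, 0.266 and 0.359 in TET2-KO. All 3 TET2-KO libraries lay below all WT libraries, with a log2 ratio of -0.67 (exact permutation test, two-sided, p = 0.1, the smallest possible; 0.22 after Benjamini–Hochberg adjustment over 11 share comparisons). AluJ went the other way relative to AluS. Its counts per AluS count were 0.358, 0.305 and 0.340 in WT and 0.408, 0.368 and 0.435 in TET2-KO, again without overlap, with a log2 ratio of 0.27 (exact permutation test, p = 0.1, adjusted 0.22). Both directions held in each setting run: the log2 ratio of AluY to AluS stayed between -0.79 and -0.54, and that of AluJ to AluS between 0.21 and 0.39. AluS thus lay between its younger and older relatives in relative change as it does in CpG content, which is a description of 3 groups and not a test.

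All 17 AluS subfamilies were abundant enough to be tested, and none passed the threshold. Counts were scaled with TMM and compared with edgeR's quasi-likelihood test over all 573 repeat subfamilies tested, of which 6 (1.05%) had an adjusted p under 0.05. Among AluS subfamilies 0 of 17 were called, and 2 had an unadjusted p under 0.05, against 79 of 573 in all. The DESeq2 Wald test called 1 of them, AluSq4, where it called 7.88% of all subfamilies. The median log2 change of the 17 was -0.15, with 6 above 0, beside a median of 0.03 over all subfamilies tested.

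Levels are given as CPM, counts scaled by TMM to a common library size, and the 6 subfamilies with the highest means are described in full. AluSx, a large subfamily of 125593 elements, was at 12413, 16238 and 24981 in WT and at 10895, 10294 and 15302 in TET2-KO. The groups overlapped, with a log2 change of -0.56 ± 0.29 (SE; adjusted p = 0.409, edgeR). AluSz was at 17060, 12764 and 9435 in WT and at 23087, 10532 and 12109 in TET2-KO, and one TET2-KO library stood above the other five (log2 change 0.22 ± 0.34, SE; adjusted p = 0.782, edgeR).

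AluSp was at 13994, 13932 and 18597 in WT and at 10930, 14260 and 11687 in TET2-KO, with a log2 change of -0.34 ± 0.22 (SE; adjusted p = 0.518, edgeR). AluSx1 was at 13057, 11634 and 9387 in WT and at 12178, 13887 and 11107 in TET2-KO, with a log2 change of 0.13 ± 0.23 (SE; adjusted p = 0.817, edgeR). Both pairs of groups overlapped. Without the elements near the 5.8S genes described below, the AluSx1 change was -0.19, so its sign rested on them.

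AluSq2 was at 6855, 8354 and 7695 in WT and at 6758, 10427 and 9815 in TET2-KO, with a log2 change of 0.24 ± 0.27 (SE; adjusted p = 0.732, edgeR). AluSg was at 8367, 11210 and 3978 in WT and at 9558, 5674 and 4670 in TET2-KO, with a log2 change of -0.24 ± 0.43 (SE; adjusted p = 0.814, edgeR). The lowest and the highest AluSg library were both WT.

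In 4 of the 17 subfamilies the groups did not overlap, and in each the TET2-KO libraries were the lower ones. This arrangement was found in 6.63% of all subfamilies tested. AluSc8 was at 5460, 7660 and 8518 in WT and at 4530, 2397 and 3409 in TET2-KO (log2 change -1.07 ± 0.36, SE; adjusted p = 0.276, edgeR). AluSx3 was at 4985, 5450 and 3650 in WT and between 2969 and 3132 in TET2-KO (log2 change -0.63 ± 0.37, SE; adjusted p = 0.454, edgeR). The other two were minor. AluSg7 was at 1484, 857 and 304 in WT against 287, 206 and 233 in TET2-KO (log2 change -1.85 ± 0.94, SE; adjusted p = 0.402, edgeR). AluSq4, with 1670 elements, was at 358, 98.8 and 1481 in WT against 51.4, 43.9 and 31.3 in TET2-KO (log2 change -3.85 ± 1.25, SE; adjusted p = 0.240, edgeR, DESeq2 adjusted p = 0.00488). A single element held 24.6% of all AluSq4 counts, all of them in WT replicate 3, and without that library the AluSq4 change was -2.35. The AluSg7 change was -1.20 without WT replicate 1.

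The remaining 7 subfamilies had overlapping groups. Their log2 changes were -0.13 for AluSc, -0.15 for AluSx4, -0.21 for AluSz6, -0.01 for AluSq, 0.04 for AluSg4, 1.12 for AluSc5 and 1.55 for AluSq10, with edgeR adjusted p-values between 0.549 and 0.998. The AluSc5 change was 1.85 without WT replicate 2. The AluSq10 value came from 1 library, at 470 CPM in TET2-KO replicate 2 against 44.5 to 74.1 in the others, and without that library the change was -0.39.

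Per megabase of sequence the order of levels was different. It is given within each group, since the subfamilies differed between them. In WT the highest means were those of AluSq4, at 1368 CPM per megabase, AluSx4 at 1260, AluSc8 at 1166 and AluSp at 806, and the lowest was that of AluSq10 at 153. In TET2-KO they were those of AluSx4 at 1132, AluSp at 639 and AluSq2 at 587, and AluSq4 was lowest at 89.4. AluSx and AluSz, with the most elements, stood at 505 and 374 in WT and at 344 and 436 in TET2-KO. In WT the AluSx4 level turned on an element in an intron of DHRSX. It lies in the pseudoautosomal region, has an identical copy at the same position of chromosome Y, and the pair together had 1775, 1602 and 1465 counts in WT and 895, 739 and 320 in TET2-KO. The pair thus held most of the AluSx4 counts of each WT library, which were 2891, 2168 and 1977. In TET2-KO it held the smaller part of each library's AluSx4 counts, which were 2589, 3261 and 3469. The groups did not overlap for the pair, but neither copy passed the test (log2 change -1.0 ± 0.90, SE, for the X copy; edgeR adjusted p = 0.846). With the pair left out, an alternative added after seeing the data, the AluSx4 change was 1.22 instead of -0.15, with an edgeR adjusted p of 0.347.

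Signal on single AluS elements was sparse and differed strongly from library to library. Counts were present on 81132 elements, and 13660 to 19026 had counts in any one library. Of the elements with counts, 83.6% had them in 1 library only and 0.281% (228 elements) in all 6, whereas among the other counted repeats of these classes the shares were 61.9% and 5.28%. The 228 held 11.3% of the AluS counts. Of 1488 AluS elements with at least 50 counts in total, 1057 (71.0%) had at least 90% of them in a single library. The figure was 66.3% for AluY, 62.5% for AluJ and 45.6% for all other elements.

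Much of the AluS signal lay on elements that cannot be told apart by sequence. Elements with at least 1 exact copy elsewhere in hg38, alternative contigs included, were 51929 of 706123 (7.35%) and held 57.1% of the AluS counts, with 52.9% to 58.5% in WT and 54.2% to 62.4% in TET2-KO. A read that lies within such an element matches every copy, so the position of these counts is uncertain. Summed over identical copies, 128 sequences had at least 500 counts. In 62 of these at least 90% of the counts came from 1 library, and in 113 the groups overlapped. In unscaled counts TET2-KO was higher without overlap in 11 and lower in 4. Near 5.8S ribosomal RNA genes it was higher in 7 and lower in 1 of 18 sequences. Elsewhere it was higher in 4 and lower in 3 of 110. Every TET2-KO library had more counts than every WT library, and a sequence can reach 500 counts through 1 group. How often groups are apart over such sequences of other repeats is not given here.

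AluS elements with counts held more CpG on average than AluS as a whole. Elements of 250 to 320 bases had a mean of 7.08 CpG over all AluS, 8.02 over those with counts and 12.4 over the 111 with counts in all 6 libraries, near the AluY mean. The share with these exact B box letters was 22.5%, 24.9% and 27% in the same order. Of the 111, 14.4% lay on contigs outside the chromosomes, against 4.78% of all AluS of that length. Since copies share reads, the 111 are not independent elements. Weighted by counts, a library's mean was 8.01 to 8.39 CpG per AluS element in WT and 8.30 to 9.20 in TET2-KO. Elements of at least 270 bases took 83.3% to 88.9% of the AluS counts in WT and 80.9% to 85% in TET2-KO, beside 85.6% of all AluS elements (exact permutation test between groups, p = 0.3).

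AluS signal lay more often inside genes than AluS elements do. On the chromosomes, 64.5% of AluS elements were inside a gene of GENCODE, but 79.3%, 81.7% and 80.4% of the AluS counts in WT and 75.0%, 74.5% and 74.5% in TET2-KO. The TET2-KO libraries were below all WT libraries, at 74.7% ± 0.250 (SD, n = 3) against 80.5% ± 1.23 (SD, n = 3), a log2 ratio of -0.11 (exact permutation test, p = 0.1, adjusted 0.22). Without elements near 5.8S genes it was -0.09. Elements touching an exon were 3.57% of AluS elements and took 7.66%, 10.4% and 6.63% of the counts in WT and 10.4%, 9.91% and 14.7% in TET2-KO, with a log2 ratio of 0.51 (exact permutation test, p = 0.2). Of counts in genes of 1 orientation, 66.6% to 73.6% in WT and 61.9% to 70.8% in TET2-KO were on elements in the orientation of the gene, beside 44.2% of elements (exact permutation test, p = 0.5). Contigs outside the chromosomes, most of them alternative versions of chromosome regions, held 4.91% of AluS elements but 25.5% to 29.0% of the AluS counts in WT and 23.7% to 26.1% in TET2-KO.

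Among protein-coding genes, DHRSX, CCDC200 and KANSL1 had the highest mean shares of the AluS counts. DHRSX on the X chromosome held 2.05%, 3.41% and 1.38% of the AluS counts in WT and 0.732%, 0.719% and 0.446% in TET2-KO, without overlap. NPIPB3, a member of the nuclear pore complex interacting protein family on chromosome 16, held 0.274%, 0.560% and 0.897% in WT and 0.624%, 0.729% and 1.53% in TET2-KO, which overlapped. NPIPB12, of the same family, held 0.133%, 0.353% and 0.352% in WT and 0.332%, 0.562% and 0.774% in TET2-KO. NPIPB5 held 0.346%, 0.198% and 0.485% in WT and 0.321%, 0.469% and 0.367% in TET2-KO, and the groups of both genes overlapped. NPIPB4, of the same family, held 0.256%, 0.312% and 0.367% in WT and 0.522%, 0.626% and 0.816% in TET2-KO, without overlap and higher in TET2-KO. KANSL1, a subunit of a histone acetyltransferase complex, held 0.987%, 1.26% and 3.10% in WT and 0.781%, 0.275% and 0.000694% in TET2-KO, also without overlap. In WT replicate 3, 1 AluSp element had 881 of the 1615 KANSL1 counts, and it had 0 in TET2-KO. How often groups are apart over all genes is not given here. CCDC200 reached 3.89% in TET2-KO replicate 3 and was between 0.276% and 1.69% elsewhere.

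The 100 highest AluS loci of each library held less of the AluS signal in TET2-KO, but this measure moves with depth. They had 40.0%, 48.9% and 52.0% of the AluS counts in WT and 33.6%, 38.2% and 35.7% in TET2-KO, a log2 ratio of -0.38 without overlap (exact permutation test, p = 0.1, adjusted 0.22). Among AluS elements with counts in at least 2 libraries the log2 ratio was -0.16 (exact permutation test, p = 0.3). The libraries had 67480, 50993 and 52070 AluS counts in WT and 85378, 65194 and 72058 in TET2-KO. WT replicate 1 and TET2-KO replicate 2, which were close in depth, stood at 40.0% and 38.2%. The part of depth in this difference was not tested.

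Single loci were tested with the same edgeR model over 3127 repeat elements, of which 3 (0.0959%), the FordPrefect copies, had an adjusted p under 0.05. Of 150 AluS loci abundant enough to be tested, 0 were called, 26 had an unadjusted p under 0.05, and the lowest adjusted p was 0.202. Of the 26, 17 were among the 37 loci near 5.8S copies and 9 among the 113 elsewhere, beside 235 of all 3127 loci. The DESeq2 Wald test used another set of loci and gave an adjusted p to 3943, of which 286 were AluS. It called 2.59% of all 3943, and 25 of the 286 AluS loci, all higher in TET2-KO. Of these 25, 15 drew 90% or more of their counts from 1 library and 9 lay near a 5.8S gene. In 35 of the 150 the groups did not overlap and TET2-KO was higher, and in 12 it was lower, beside 8.76% and 6.46% of all loci tested. Near 5.8S copies 19 were higher and 3 lower, and elsewhere 16 were higher and 9 lower. Loci that pass the abundance filter through the higher group must differ, and copies share reads, so these counts support nothing about AluS as a whole. The median log2 change was 3.91 over the 37 AluS loci near 5.8S copies, 0.07 over the 113 elsewhere and 0.12 over all loci. Over the 150 together it was 0.92, and over these and all loci it was 0.17 and -0.58 when libraries were scaled by totals alone, a setting that moved all loci together.

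Near the ribosomal RNA genes the AluS signal was higher in TET2-KO. In the human genome these genes lie in tandem repeat units, each a transcribed part with the 18S, 5.8S and 28S sequences and a long intergenic spacer that contains Alu elements. Exact copies of the 5.8S gene were found at 8 places, 4 on chromosome 21 and 4 on contigs, and 162 AluS elements lay within 50 kb of them, 108 with counts. These took 4.54%, 2.07% and 1.68% of the AluS counts in WT and 12.0%, 11.3% and 7.07% in TET2-KO. Every TET2-KO library was above every WT library, with a log2 ratio of 1.97 (exact permutation test, p = 0.1, adjusted 0.22). This comparison was added after seeing the data. Over those same units FordPrefect was higher in TET2-KO by the values given above, while all other repeat elements outside the Alu family held 2.1% to 2.50% of all counts in WT and 1.94% to 2.59% in TET2-KO. Other Alu elements near the 5.8S copies held 0.386%, 0.532% and 0.233% of all counts in WT and 0.135%, 0.344% and 0.292% in TET2-KO, which overlapped. Of all counts near the 5.8S copies, AluS made up 4.47%, 1.71% and 1.24% in WT and 4.63%, 3.82% and 2.31% in TET2-KO, which overlapped too. The part of FordPrefect or of ribosomal RNA content in the AluS result was not tested.

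Elements of 1 subfamily and strand at a similar distance from a 5.8S gene were summed, which gave 49 sites, 21 of them with at least 200 counts. Elements with no 5.8S copy shortly upstream were placed by the next copy downstream, at offsets down to -49.2 kb. A place in the unit can thus appear as more than 1 site, and some sites may lie outside the unit. The 49 and 21 are therefore not counts of places in the unit. In unscaled counts the groups were apart at 7 of the 21, with TET2-KO higher at 6 and lower at 1, and overlapped at 14. Library totals were 498145 to 649905 in WT and 715023 to 827341 in TET2-KO, and a site can reach 200 counts through the higher group. Over all single loci tested, in scaled counts, the groups were apart with TET2-KO higher in 8.76% and lower in 6.46%. At 4 AluSz and AluSx1 sites in the middle of the spacer, the groups were farthest apart. The AluSz site 14.5 kb downstream of the 5.8S gene had 3.1, 4.6 and 4.0 counts in WT and 577, 1251 and 302 in TET2-KO. The neighbouring AluSx1 site at 14.9 kb had 2.90, 2.20 and 2.49 in WT and 767, 379 and 440 in TET2-KO. WT libraries were thus at a few counts each.

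The same AluSz and AluSx1 pair recurs at 18.7 and 19.2 kb. That AluSz site had 5.97, 2.40 and 2.74 counts in WT and 1512, 75.2 and 279 in TET2-KO. That AluSx1 site had 2.1, 3.6 and 3.37 counts in WT and 1595, 586 and 781 in TET2-KO. Over the 19 AluSz and AluSx1 elements of this stretch, the sum scaled to library totals (CPM) was 22.4, 26.1 and 22.9 in WT and 5423, 3212 and 2177 in TET2-KO. The means were 23.8 ± 2.01 (SD, n = 3) and 3604 ± 1658 (SD, n = 3), 152-fold apart. The stretch was chosen after its values were seen, so no test is given.

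**Figure D1:**
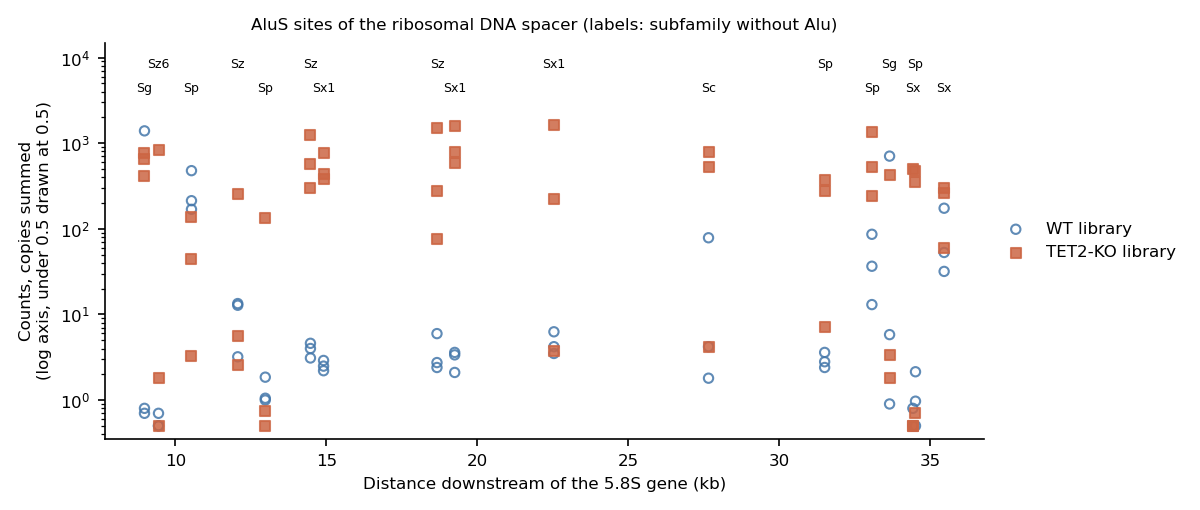
AluS sites of the ribosomal RNA gene spacer with at least 100 counts, by mean distance downstream of the 5.8S gene (kb). Each point is the sum over copies in 1 library (log axis; values under 0.5 drawn at 0.5), circles WT and squares TET2-KO; at the AluSz and AluSx1 sites between 14.5 and 19.2 kb all WT libraries are under 6 counts and all TET2-KO libraries above 75.

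Other AluS sites of the same spacer did not follow this pattern in every library. At 9.0 kb, a 135-base AluSg had 1393 counts in WT replicate 1, 0.700 and 0.800 in the other WT libraries and 661, 759 and 416 in TET2-KO. An AluSx1 at 22.5 kb had 1627 and 224 counts in TET2-KO replicates 1 and 2 but 3.70 in replicate 3, within the WT range of 3.50 to 6.27. An AluSc at 27.7 kb had 781 and 531 counts in the same replicates and 4.20 in the third, beside 78.6, 4.20 and 1.80 in WT. The site with the opposite order was an AluSp at 10.5 kb, at 478, 213 and 169 counts in WT and 44.6, 3.27 and 137 in TET2-KO. An AluSp at 33.1 kb was at 13, 36.5 and 86.3 in WT and at 524, 1353 and 242 in TET2-KO.

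The 3 AluS loci with the largest change toward TET2-KO among those with an unadjusted p under 0.05 and separate groups were copies of the AluSx1 site at 19.2 kb. The copy with the highest scaled counts had 0.800, 1.1 and 1.57 counts in WT and 385, 209 and 322 in TET2-KO, with a log2 change of 6.74 ± 1.35 (SE; adjusted p = 0.202, edgeR). Another copy had a log2 change of 6.84 ± 1.54 (SE; adjusted p = 0.202, edgeR). The third had one of 6.55 ± 1.59 (SE; adjusted p = 0.202, edgeR). With DESeq2 their adjusted p-values were 0.0151, 0.0206 and 0.0314.

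The 3 loci with the largest change toward WT by the same rule were also copies of each other, AluSq elements of 292 bases. The chromosome 6 copy and that on an unplaced contig were identical, and the chromosome 5 copy differed from them at 1 position. The copy at chr6:170680064-170680355, in an intron of ENSG00000230423, had 43.2, 104 and 36.6 counts in WT and 0, 2.00 and 0 in TET2-KO (log2 change -4.45 ± 1.14, SE; adjusted p = 0.215, edgeR). The copy at chr5:181404508-181404799, intergenic, had 50.4, 113 and 40.3 counts in WT and 0, 1.83 and 0 in TET2-KO (log2 change -4.58 ± 1.18, SE; adjusted p = 0.215, edgeR). The contig copy had a log2 change of -4.79 ± 1.30 (SE; adjusted p = 0.250, edgeR). Summed over the 4 exact copies of the chromosome 6 element, which include an element at chr1:649841-650132, there were 118, 251 and 173 counts in WT and 0, 3.83 and 0 in TET2-KO.

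The 10 AluS loci with the highest scaled counts included the pseudoautosomal pair, that AluSx1 copy of the spacer and 7 others. A 97-base AluSq2 fragment on chromosome 16 accounted for 3 of them, at chr16:21402221-21402317, chr16:29483626-29483722 and chr16:21834655-21834751, each overlapping an exon at the 3′ end of an NPIPB gene (NPIPB3, NPIPB12 and NPIPB4) on the gene's strand. The NPIPB3 copy had 64.0, 134 and 267 counts in WT and 208, 358 and 892 in TET2-KO (log2 change 1.89 ± 1.15, SE; adjusted p = 0.760, edgeR). In TMM-scaled counts its groups were apart. The TMM factors of the locus test were 1.22 to 1.47 in WT and 0.727 to 0.839 in TET2-KO, and a lower factor gives higher scaled counts. Unscaled, the groups of this copy overlapped, and so did those of the sum over 4 exact copies (176, 319 and 667 in WT; 483, 935 and 1950 in TET2-KO). A 77-base AluSx4 fragment nearby, also with 4 exact copies, had 83.5, 68.2 and 141 counts in WT and 386, 391 and 464 in TET2-KO.

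An identical pair of AluSq2 elements on chromosome 7 was next. The copy at chr7:102549407-102549700 is in an intron of POLR2J3, which encodes an RNA polymerase II subunit paralogue, and had 0, 0 and 512 counts in WT and 363, 385 and 39.5 in TET2-KO. Its partner at chr7:102648501-102648794, in an intron of ENSG00000267645, had 0, 0 and 295 counts in WT and 479, 262 and 134 in TET2-KO. The groups of both overlapped, since a single WT library had counts. The AluSg at chr19:2419199-2419501, in an intron of TMPRSS9 on the opposite strand, had 271, 500 and 84.3 counts in WT and 215, 361 and 518 in TET2-KO (log2 change 0.52 ± 1.15, SE; adjusted p = 0.945, edgeR). The last was the 135-base AluSg of the spacer at chr21:8448801-8448935, with a log2 change of 0.39 ± 2.52 (SE; adjusted p = 0.984, edgeR).

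Separate groups were also found at duplicated AluSq2 elements of chromosome 7. The copies at 7 places with the sequence of chr7:73016842-73017145, in an intron of the pseudogene PMS2P7, summed to 0 counts in each WT library and 63.3, 393 and 138 in TET2-KO. It reached the minimum of 500 counts through TET2-KO alone, so its groups had to be apart, and this supports nothing further. This sequence and the 77-base AluSx4 fragment were among the 11 of 128 that were higher in TET2-KO without overlap, where 4 were lower. Of the 11, 7 lay near 5.8S copies.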

How the data were processed

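The 6 K-562 m5C meRIP–seq libraries were analysed, and the mouse table was not used here. According to the study's methods and processing notes, adapters were cut with Trimmomatic 0.39, HISAT2 2.1.0 placed the reads on hg38, Picard took out duplicates and featureCounts assigned reads to repeat elements. The deposited values are the estimated counts the authors obtained; counting options (strand, multiple positions) are not given in the sources used here. Of the non-zero AluS values 31.5% were whole and 55.7% below 1. Per library 498145 to 827341 counts set the precision, and they include no input or spike-in.

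Counts were summed per subfamily, or kept per element where an element had at least 3, and rounded. edgeR 4.0.16 quasi-likelihood tests (filterByExpr, TMM, prior count 2) were run on the whole table, with Benjamini–Hochberg adjustment over all items tested and a threshold of 0.05. DESeq2 1.42.0 was an alternative. SE is the log2 change over the root of F. Shares were compared on the log2 scale by an exact permutation test over 20 assignments. Gene context used GENCODE 44, an element being inside a gene by its midpoint, and sequence features were counted in hg38. All names and lengths of the 376 contigs matched. Positions are 1-based. Near-identical copies share reads, so single loci are uncertain. Named items were all 17 subfamilies, the 10 highest loci, and up to 3 loci per direction with the largest change among those with an unadjusted p under 0.05 and separate groups. Host genes, spacer sites and some sequences with exact copies were named outside this rule. Element sequences are not reported here. Members, lists and tests were chosen with earlier results of these data known. The models were tested on simulated data.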

Additional observations from a re-analysis of the deposited data

How the results depend on the processing

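The share comparisons cannot reach a p under 0.1, so only their direction can be compared. The AluS share of the counts turned from a log2 ratio of -0.09 to 0.16 without the 10 highest elements, 0.027 without elements near annotated 5.8S genes and 0.069 without those near any 5.8S copy (added after seeing the data); FordPrefect was among the elements taken out. The share on the strand of the gene turned to 0.025 among elements with counts in at least 2 libraries, and the cause was not tested. No other share changed direction. AluS calls were 0 in each edgeR setting and when each library was left out, while the DESeq2 Wald test called 1 subfamily and 25 loci. Only AluSq4 and the 3 AluSx1 loci of chromosome 21 passed the threshold among named items, with DESeq2 log2 changes of -4.06, 8.08, 8.82 and 8.53. Since no edgeR call was made among AluS, the settings say nothing of the stability of a call.

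Subfamilies near 0 changed sign. AluSc was at 0.000236 with library totals alone and 0.074 on chromosomes only. AluSg4 was at -0.047 with DESeq2 size factors, -0.061 with DESeq2, -0.021 with a total of at least 10, -0.092 on chromosomes only and -0.13 without the highest element of each subfamily. AluSq was at 0.13 with library totals, 0.010 and 0.000171 without elements near annotated or any 5.8S genes, and 0.00207 with values of at least 1. AluSx1 was at -0.12 and -0.19 without elements near annotated or any 5.8S genes. AluSx4 was at 0.32 without the highest element of each subfamily and 1.22 without the pseudoautosomal pair. With library totals, the AluSg loci chr19:2419199-2419501 and chr21:8448801-8448935 were at -0.18 and -0.32.

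Leaving out 1 library at a time gave log2 changes from -0.36 to 0.057 for AluSc, -0.56 to 0.18 for AluSg, -0.19 to 0.61 for AluSg4, -1.27 to 0.40 for AluSq, -0.39 to 2.08 for AluSq10, -0.25 to 0.040 for AluSx4, -0.17 to 0.50 for AluSz, -0.31 to 0.14 for AluSz6, and -0.25 to 6.48 for the AluSg at chr21:8448801-8448935, where the highest value left out WT replicate 1. With no change of sign, the range was -4.35 to -2.35 for AluSq4, -2.26 to -1.20 for AluSg7, 0.82 to 1.85 for AluSc5, 0.11 to 1.43 for the AluSg at chr19:2419199-2419501, and 0.48 to 7.26 and 1.35 to 7.34 for the AluSq2 pair of chromosome 7, whose highest values left out WT replicate 3.

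The replicate numbers are shared by the groups but were not found to pair the libraries: deviations of same-numbered libraries correlated at -0.05, 0.04 and -0.10 over subfamilies. With the replicate number as a block, 0 AluS subfamilies and 0 AluS loci were called, and the sign-flip test, whose smallest p is 0.25, gave 0.25 for AluY over AluS (log2 ratio -0.67).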
